A study of Drosophila melanogaster with 36 samples.

Results

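Euchromatic 1 kb bins of the fly genome that carried trimethylated lysine 9 of histone H3 (H3K9me3) in control ovaries and less of it after germline knockdown of piwi numbered 623 of the 139714 bins of the dm3 assembly. They were chosen from the measured values themselves. A bin had to lie outside the annotated heterochromatin, chromosome 4 and the major piRNA clusters, have an input signal of at least 25% of the median over all bins, and have a control small RNA signal below 10. Its control H3K9me3 signal had to be at least 2 times its input signal, and its signal in piwi knockdown at most 0.67 times that of the control, each after adding 1 to both values. These 4127 enriched bins with little small RNA thus fell into the 623 bins described here and 3504 bins with a smaller loss, a gain or no change, which are called the less affected bins below. A further set, all 106714 euchromatic bins that passed the input and small RNA limits, serves as background.

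Piwi is a nuclear Argonaute protein that is guided to nascent transcripts by PIWI-interacting RNAs (piRNAs) and brings about H3K9me3 and transcriptional silencing there, mostly at transposon insertions. In the fly ovary the mark can spread from a silenced insertion into the flanking DNA. Rhino is a member of the HP1 family whose chromodomain binds H3K9me3, and it acts with Deadlock and Cutoff at dual-strand piRNA clusters, the loci in the germline that supply most of the guides.

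All material was ovary from adult females aged 4 to 6 days, in which the germline carried a control knockdown or the knockdown of one of the genes piwi, rhino, deadlock and cutoff. The labels name the knocked-down gene but not the fly lines or the driver. Somatic cells of the ovary were not targeted and remain in every sample, so that a lower signal in whole ovary can come from fewer cells with the mark or from less of it per cell, which cannot be told apart. H3K9me3 chromatin immunoprecipitation (ChIP-seq) covered control, rhino and piwi knockdown. Rhino ChIP covered those 3 and deadlock and cutoff knockdown, while Deadlock and Cutoff ChIP each had a control and the knockdown of its own target. RNA polymerase II (Pol II) ChIP and nascent RNA (GRO-seq, a nuclear run-on) covered control and rhino knockdown. RNA-seq and small RNA-seq covered control, rhino, deadlock and cutoff knockdown. Piwi-bound small RNA came from piwi knockdown, and its label calls it somatic piRNAs. The samples include no RNA-seq, Pol II ChIP or GRO-seq library from piwi knockdown. H3K9me3, the input, and Rhino ChIP in control and piwi knockdown were given as the authors' averages of 2 libraries, so they have no SD. The control group of RNA-seq had 2 libraries in columns of their own, and each other group used here had 1 library. ChIP of another histone mark (H3K4me2) and capped RNA, both from control ovaries, were not used here. Recovered read totals in bins ranged from 4058460 to 24734200 for single ChIP libraries, were 7238580 and 6822550 for GRO-seq, and ranged from 40172500 to 187929000 for RNA-seq and from 2000860 to 6402820 for small RNA.

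The values that chose the bins are a description. Median H3K9me3 signal was 29.6 in the control, 12.2 in piwi knockdown and 9.74 in the input, and the ratio of piwi knockdown to control ran from 0.0396 to 0.67 with a median of 0.494. The bins ended just inside the limit with ratios of 0.66984, 0.66967 and 0.66964, and the nearest bins outside had 0.67002, 0.67036 and 0.67067, so there was no gap at the limit. In piwi knockdown 189 of the 623 bins (30.3%) lay below their own input, as did 84.9% of the background, whereas 155 (24.9%) were still at least 2-fold above it, beside 3.37% of the background. The set therefore holds both bins in which the signal fell below the input and bins in which a good part of it was left. A signal below the input is not read as complete loss. The background had a median H3K9me3 of 4.68 in the control and 4.85 in piwi knockdown, beside a median input of 9.24. The median of the 189 bins in piwi knockdown was 6.94. In the authors' own H3K9me3 peaks lay 84.1% of the bins, beside 78.7% of the less affected bins and 5.11% of the background.

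The bins lay on all 5 large chromosome arms. There were 101 on 2L, 80 on 2R, 95 on 3L, 110 on 3R and 237 on X. X also had the largest share of enriched bins, 8.99% of its euchromatic bins beside 2.32% to 3.07% on the autosomal arms. Of the enriched bins themselves, 13.0% fell into the set on X and 14.4% to 19.0% on the autosomal arms. Exons overlapped 307 of the 623 bins (49.3%), close to the 49.7% of the less affected bins and the 45.2% of the background. None of the bins lay in the published piRNA clusters annotated by the authors.

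Neighbouring bins were often in the set together. Joined across gaps of up to 3 kb, the 623 bins formed 341 domains, of which 241 were single bins, 46 held 2, 31 held 3 or 4 and 23 held 5 or more. The largest held 17. Around the bin with the highest control signal in the 100 domains of 2 or more bins, the median control signal fell from 39.9 at the centre to 15.1 at 3 kb upstream and 14.8 at 3 kb downstream, and to 9.01 and 8.70 at 8 kb. The median in piwi knockdown was 15.6 at the centre and 8.85 and 8.07 at 3 kb, and in rhino knockdown 22.0, 12.4 and 11.2. The centre was chosen by the control signal, and the bins by control and piwi knockdown values. A control peak and a lower piwi knockdown value there follow from that choice. Rhino knockdown is set against the same chosen control maximum, so no shape or size of loss is read from these medians. Neighbours are not independent measurements, and no gene names are given for these regions because no annotation on dm3 was used.

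**Figure D1:**
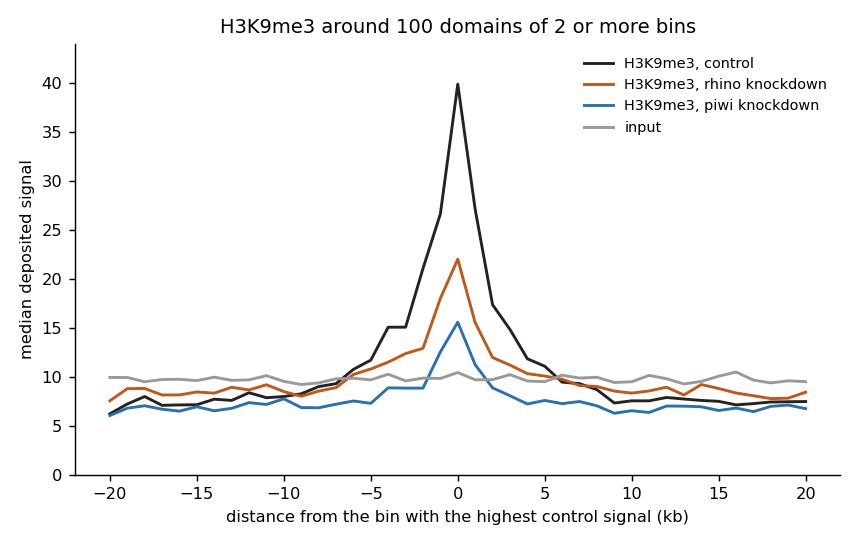
Median deposited signal of H3K9me3 and input (y axis) against distance in kb from the bin with the highest control signal (x axis), over the 100 domains of 2 or more bins. The control peaks at 39.9, rhino knockdown at 22.0 and piwi knockdown at 15.6, while the input stays near 10.4 at the centre; the centre was chosen by the control signal.

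H3K9me3 was also lower after rhino knockdown in most of the bins, although the rule did not use that library. The median signal there was 18.7, between the 29.6 of the control and the 12.2 of piwi knockdown. Of the 623 bins, 373 (59.9%) lay at or below 0.67 times the control, beside 566 of the 3504 less affected bins (16.2%) and 4.27% of the background. The median log2 change from control was -0.73, with quartiles of -1.19 and -0.34, beside -0.21 in the less affected bins and 0.12 in the background. This change shares its control values with the rule. The level over input, in which the input and the piwi knockdown values were also used by the rule, had a median log2 of 0.97 in rhino knockdown and 0.44 in piwi knockdown, and in the less affected bins of 1.32 and 1.37. With each H3K9me3 column scaled to an equal median over the background, which moved the rhino knockdown values by -0.20 on the log2 scale, the shares at or below 0.67 became 71.9% of the 623 bins, 31.2% of the less affected bins and 9.29% of the background. None of these values has a replicate behind it that could be tested.

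H3K9me3 was lower in piwi than in rhino knockdown in 428 of the 623 bins (68.7%), beside 58% of the background, and in 216 (34.7%) it was at or below 0.67 times the rhino knockdown value, beside 12%. The bins were chosen for a low value in piwi knockdown, so nothing is read from these differences from the background. Rhino knockdown left 302 bins (48.5%) at least 2-fold above input, beside 4.3% of the background, and 75 bins (12.0%) had at least as much H3K9me3 as the control, beside 61.7%. The set was chosen for a high control value over input and the background was not, so nothing is read from these differences either. By the piwi ratio that the rule used, 61 of the 84 bins at or below 0.25 (72.6%) were lower in rhino knockdown, and 170 of the 301 bins above 0.5 (56.5%). Both ratios have the control as denominator, so no trend is read from these shares. In 33 bins of 14 domains both ratios were at or below 0.25, and in these the median signal went from 34.6 in the control to 5.88 in rhino and 4.67 in piwi knockdown, below the median input of 10.4. In another 23 bins of 14 domains the piwi ratio was as low and the rhino ratio stayed above 0.67, with medians of 42.0 in the control, 36.7 in rhino and 6.49 in piwi knockdown.

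**Figure D2:**
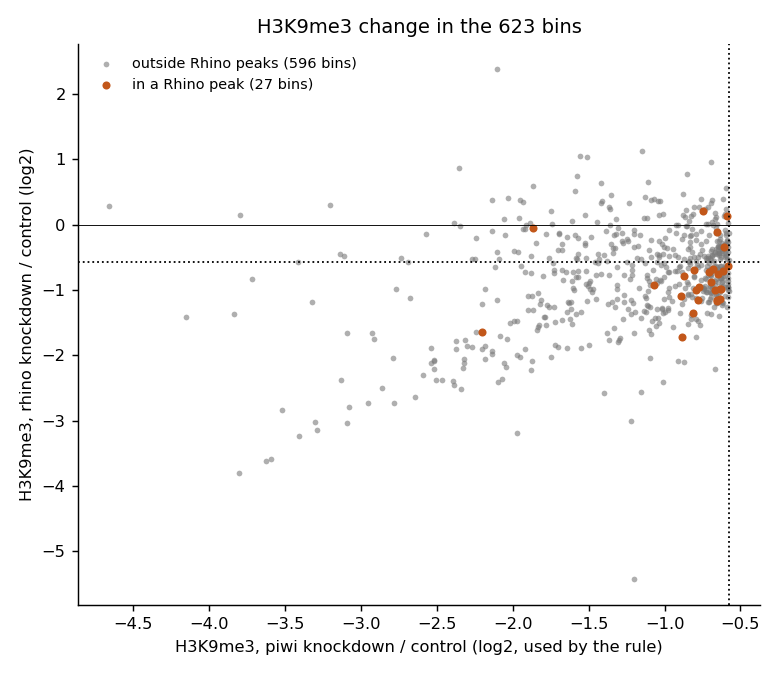
Log2 change of H3K9me3 from control in rhino knockdown (y axis) against that in piwi knockdown (x axis) for the 623 bins, with the 27 bins in a Rhino peak in orange and dotted lines at the limit of 0.67. Bins spread from equal loss in both, along the lower diagonal, to no loss in rhino knockdown, around 0 on the y axis; the vertical limit is the rule itself, and both axes share the control values.

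The same split was seen domain by domain. Among the 54 domains of 3 or more bins, every bin was at or below 0.67 in rhino knockdown in 26, no bin was in 12, and 16 held both kinds. Their median rhino to control ratio ranged from 0.124 to 1.32.

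Of the 10 domains with the most bins, 3 were lower in rhino knockdown in every bin. The first, 2L:18527001-18545000, held 17 bins, 16 of them over exons. Its mean H3K9me3 was 29.0 in the control, 5.19 in rhino knockdown and 4.38 in piwi knockdown, and its input had 10.2 in the median bin (7.51 to 12.9). Its bins ranged from 20.9 to 47.4 in the control, from 3.18 to 7.59 in rhino knockdown and from 3.05 to 6.33 in piwi knockdown, and the control and piwi values are those the rule used. The domain at 2L:19154001-19170000, with 13 bins of which 3 overlapped exons, went from 51.6 to 15.6 in rhino and 12.3 in piwi knockdown. The 9 bins of X:3600001-3610000 went from 31.3 to 16.2 and 12.4. A further domain, 3R:27620001-27631000, overlaps exons in all of its 9 bins and was intermediate. Its mean was 52.8 in the control, 24.8 in rhino knockdown with 7 bins at or below 0.67, and 5.28 in piwi knockdown, under its input of 12.4.

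The other 6 of these domains kept most of their H3K9me3 in rhino knockdown. At 3R:485001-495000 the mean over 10 bins was 30.1 in the control, 33.7 in rhino knockdown and 12.5 in piwi knockdown, and none of its bins was at or below 0.67 in rhino knockdown. The 8 bins of 3R:11761001-11771000 had 40.0, 33.3 and 11.7, again with none at or below 0.67. X:21073001-21087000, with 13 bins, had 21.3, 20.1 and 7.99, and 2 of its bins were at or below 0.67. The remaining values were 23.3, 17.9 and 8.94 over the 13 bins of X:10073001-10089000, with 4 bins at or below 0.67, and 32.2, 24.4 and 11.1 over the 8 bins of X:4562001-4573000, with 2. In these 5 domains the input means were 10.5, 10.3, 7.92, 7.42 and 10.6 in the same order, each below the piwi knockdown mean.

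The domain at 2R:12097001-12110000 had the highest mean of the 10 and is uneven. Its mean over 13 bins was 65.3 in the control, 46.9 in rhino knockdown and 14.2 in piwi knockdown, but its median rhino to control ratio was 0.986 and only 3 bins were at or below 0.67. The mean is carried by a bin with 291 in the control, whereas the median bin had 42.2 in the control, 45.2 in rhino knockdown and 8.59 in piwi knockdown. By the median bin of the control, 3R:27620001-27631000 was higher, at 54.4. Mean nascent RNA was the highest of the 10 in 2R:12097001-12110000, at a GRO-seq signal of 215 in the control and 265 in rhino knockdown. Its bins ranged from 1.37 to 2020 in the control, and its median bin had 5.62, lower than in several of the other domains. Its RNA-seq level was low, at 2.63 and 2.43 for the control pair, and the rhino, deadlock and cutoff knockdown libraries gave 2.11, 2.09 and 2.03. The deposited bins are not stranded, so nascent and stable RNA there cannot be assigned to a transcript.

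**Figure D3:**
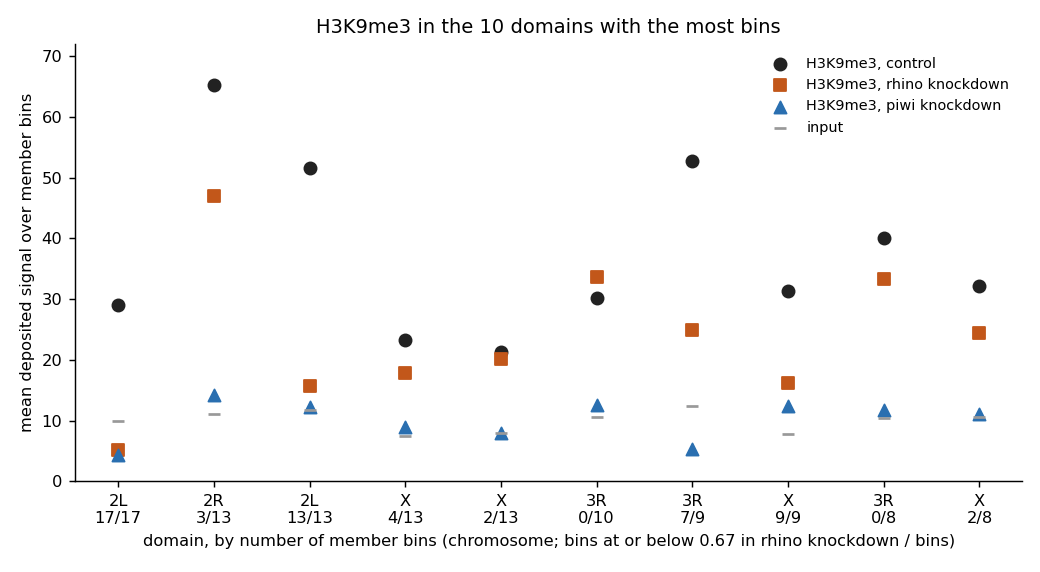
Mean deposited signal of H3K9me3 in control, rhino knockdown and piwi knockdown, and of the input (y axis), over the bins of the 10 domains with the most bins (x axis, with the chromosome and the number of bins at or below 0.67 in rhino knockdown out of all its bins). Piwi knockdown is the lowest of the 3 in each, and rhino knockdown lies near it in the first domain and at or above the control in the sixth.

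Of the 5 bins with the lowest rhino to control ratio, 4 had a mappability index of 0.026 or less, where very few reads decide the value; these were 3R:21559001-21560000, 2R:8754001-8755000, 2L:3209001-3210000 and 3R:15531001-15532000. The other, 3L:14014001-14015000, had a mappability index of 1, overlapped an exon, and went from 69.6 in the control to 6.49 in rhino and 5.65 in piwi knockdown, beside an input of 11.7. In the same bin Pol II was 12.1 in the control and 33.3 in rhino knockdown, GRO-seq was 12.4 in the control and 27.0 in rhino knockdown, and small RNA was 3.92 in the control against 14.1, 23.2 and 21.2 after knockdown of rhino, deadlock and cutoff. Its RNA-seq signal was 8.97 and 12.1 in the controls, and the 3 knockdowns lay within or just below that range with 9.71, 9.62 and 8.52. At the other end, 4 of the 5 bins with the highest ratio had a mappability index of 1 and overlapped exons, while 2L:21043001-21044000, with a ratio of 5.19, had an index of 0.101. The highest of the 4, 3L:22793001-22794000, had 27.1 in the control, 60.0 in rhino knockdown and 11.7 in piwi knockdown. The next were 3R:1570001-1571000 with a rhino ratio of 2.08, 2R:9324001-9325000 with 2.05 and X:2004001-2005000 with 1.95.

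Strong Rhino signal was found on few of these bins, though on a larger share of them than of the background. The median log2 of control Rhino ChIP over input was 0.11, beside 0.29 in the less affected bins and -0.26 in the background. At least 2-fold enrichment was reached by 76 of the 623 bins (12.2%), by 18.0% of the less affected bins and by 1.66% of the background. At least 4-fold enrichment was reached by 9 of the 623 bins (1.44%), 68 of the 3504 and 0.0834% of the background. A Rhino peak of the authors overlapped 27 bins (4.33%), beside 3.62% of the less affected bins and 0.285% of the background, and none of the 10 largest domains had one. The share with lower H3K9me3 in rhino knockdown was as follows by Rhino level: 59.0% of the 251 bins with no enrichment, 60.8% of the 296 bins with up to 2-fold enrichment and 58.2% of the 67 bins with 2-fold to 4-fold enrichment were at or below 0.67, as were 6 of the 9 bins above 4-fold. The columns behind these shares are averages of 2 libraries with no spread, so the shares were not tested.

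Over all 623 bins the median log2 change of Rhino ChIP from control was -0.32 in rhino, -0.31 in deadlock, -0.18 in cutoff and 0.01 in piwi knockdown. The same medians were 0.17, 0.17, 0.18 and -0.05 in the background and -0.55, -0.63, -0.19 and 0.06 in the less affected bins. These changes share the control column. In piwi knockdown, Rhino differed with the response of H3K9me3 to rhino knockdown. Rhino over input had a median log2 of 0.43 in piwi knockdown in the 373 bins with lower H3K9me3 in rhino knockdown, and their control median was 0.12. In the other 250 bins the median Rhino level was 9.63 in the control and 8.69 in piwi knockdown, against 10.4 and 12.9 in the 373. At least 2-fold over input in piwi knockdown were 101 of the 623 bins (16.2%), beside 25.2% of the less affected bins and 3.05% of the background.

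In the 27 bins in Rhino peaks, signals of all 3 proteins were above those in the knockdown of each. Their Rhino ChIP over input had a median log2 of 1.28 in the control, -0.03 in rhino, 0.12 in deadlock, -0.44 in cutoff and 0.98 in piwi knockdown. With deadlock, cutoff or rhino itself knocked down, 1 library each, the median lay near or below the input level. After piwi knockdown it lay closer to that of the control. The bins were picked by a Rhino peak, so a high control value and part of a fall from it can follow from that choice. No size of loss is read from these medians. Deadlock ChIP summed over the 27 bins was 1.49 times as high in the control as in deadlock knockdown (exact 95% interval 1.43 to 1.56, counting error only), beside 0.992 in the background. Cutoff ChIP was 1.88 times as high as in cutoff knockdown (1.82 to 1.95), beside 1.01 in the background. H3K9me3 had a median log2 change of -0.92 in rhino knockdown, and 22 of the 27 bins (81.5%) were at or below 0.67. Of the 127 less affected bins in Rhino peaks, 12.6% were. The piwi to control ratio that separates these groups shares its control values with this change, so nothing is read from the difference.

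**Figure D4:**
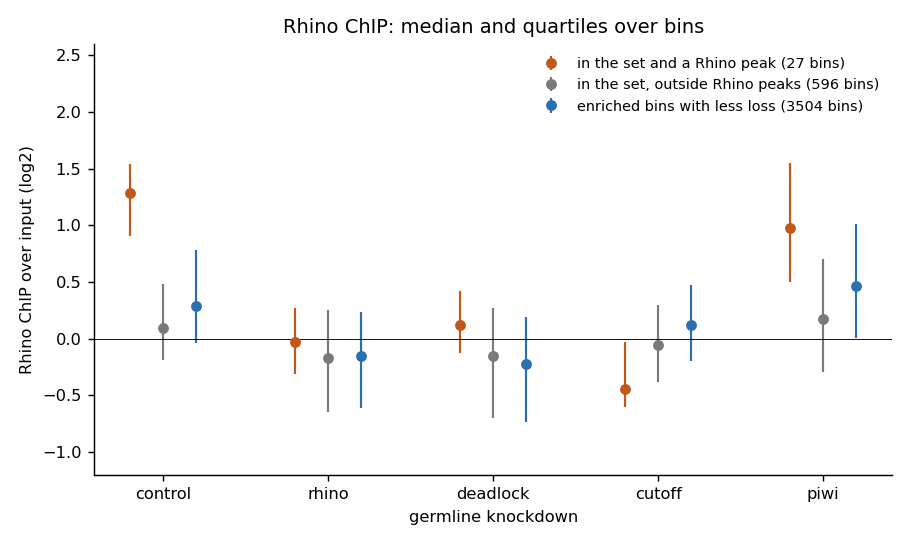
Log2 of Rhino ChIP over input (y axis) in control and in each germline knockdown (x axis); points are medians over bins and bars run from the lower to the upper quartile over bins, not over replicates. The 27 bins in Rhino peaks stand at 1.28 in the control and 0.98 in piwi knockdown and near or below 0.12 in the other knockdowns. The other bins have control medians nearer the input level, and the less affected bins also shift between knockdowns.

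The bins were more transcribed than other enriched bins. Median Pol II ChIP signal in the control was 6.90, beside 4.59 in the less affected bins and 2.12 in the background, and median GRO-seq signal was 6.32, 2.22 and 0.949. GRO-seq was not part of the rule, and the share of enriched bins that fell into the set was larger in classes with more of it, from 6.78% of 1460 bins with a signal below 1 to 14.6% of 1061 bins with 1 to 5, 22.6% of 1118 bins with 5 to 20 and 23.8% of 488 bins with 20 or more. The share of the set that was also at or below 0.67 in rhino knockdown went up along the same classes, from 40.4% to 50.3%, 66.4% and 75.0% (87 of 116 bins), and in the less affected bins from 7.20% to 14.1%, 25.9% and 31.2%. By Pol II signal the classes below 2, 2 to 5, 5 to 20 and 20 or more gave 9.07%, 13.0%, 18.5% and 19.2%. Median Pol II, GRO-seq and RNA-seq were all higher in the set than in the less affected bins. Whether they were high in the same bins was not tested, so these are not counted as separate observations. Each of the classes above rests on 1 control library.

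**Figure D5:**
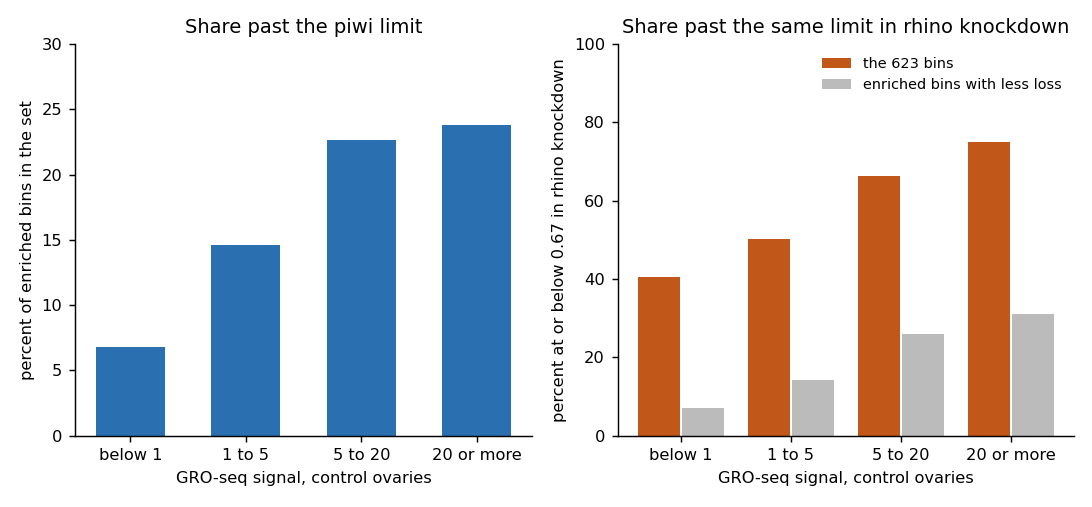
Left, percent of the enriched euchromatic bins that met the piwi limit (y axis) by GRO-seq signal in control ovaries (x axis). Right, percent of bins at or below 0.67 in rhino knockdown (y axis) by the same classes, for the 623 bins (orange) and the less affected bins (grey); both sets of bars rise from the lowest class, 40.4% and 7.20%, to the highest, 75.0% and 31.2%. Bars have no replicate error.

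Pol II and nascent RNA over these bins were near the control level after rhino knockdown. Summed Pol II reads, scaled by the value of 1 read in each deposited column, were 0.996 times the control (exact 95% interval 0.991 to 1.00, counting error only), and the median log2 change per bin was 0.02. The summed ratio was 0.984 in the less affected bins and 0.991 in the background. Summed GRO-seq reads were 1.12 times the control (1.11 to 1.13), but 13.8% of the control reads lay in 1 bin, without which the ratio was 1.09, and the median log2 change per bin was -0.04. The background GRO-seq ratio was 0.965. In the 373 bins with lower H3K9me3 in rhino knockdown the summed ratio was 1.01 for Pol II and 1.14 for GRO-seq, the latter 1.10 without its largest bin. In the other 250 bins these ratios were 0.957 and 1.06. With 1 library per group there is no test of these ratios against the spread between ovaries.

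RNA-seq gave no bin past the threshold. The median level over the 623 bins was 0.502 and 0.919 for the control pair (0.711 ± 0.295, SD, n = 2), 0.521 for rhino, 0.414 for deadlock and 0.405 for cutoff knockdown, so all 3 knockdowns were within or just below the range of the control pair. Mean levels were 6.99 and 8.49 in the controls and 6.96, 7.18 and 7.11. Of the 623 bins, 49 (7.87%) were above both controls in all 3 knockdowns, near the 7.91% of the background, and 188 (30.2%) were below both, beside 27.7% of the less affected bins and 18.3% of the background. The limma test with Benjamini-Hochberg adjustment over 123742 bins called 0 of the 623 bins and 0 of all bins (0%) in each direction in rhino, deadlock and cutoff knockdown, with the smallest adjusted p among the 623 at 0.785, 0.681 and 0.939. Unadjusted p was under 0.05 in 12, 14 and 8 of the 623 bins (1.93%, 2.25% and 1.28%), beside 5.43%, 6.48% and 4.39% of all bins. With the 3 knockdowns as 1 group, 0 of the 623 bins and 13 of all bins were called. Without control replicate 1 that fit called 193 of the 623 (31.0%) and 24.7% of all bins, and without control replicate 2 it called 4 (0.642%) and 1.14%, each time against a single control library. The spread in this test comes from the control pair alone and the lone knockdown libraries are assumed to vary like it, so these counts do not show that RNA stayed the same. The control libraries differed between themselves, by a median log2 of 0.19 over the 623 bins.

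The 5 bins with the most RNA were all over exons. At 3L:9377001-9378000, where the control RNA-seq libraries gave 51.9 and 260, H3K9me3 was 41.8 in the control, 18.3 in rhino and 17.4 in piwi knockdown, and Pol II was 717 in the control and 849 in rhino knockdown. At X:16339001-16340000, with RNA-seq of 119 and 153 in the controls and from 116 to 128 in the knockdowns, H3K9me3 was 21.8, 34.5 and 7.55. At 3L:6598001-6599000, with 134 and 113 in the controls and 147, 212 and 151 in the knockdowns, it was 46.1, 28.4 and 29.1. The other pair, 2R:6709001-6710000 and X:18676001-18677000, had control means of 163 and 171, the latter at a mappability index of 0.108. High RNA and H3K9me3 above input thus occurred in the same bin in whole ovary, in which cell types cannot be separated.

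Small RNA inside the bins was low by the rule, but bins with small RNA lay nearby more often than elsewhere. A bin with a small RNA signal of 10 or more lay within 5 kb of 260 of the 623 bins (41.7%), of 27.5% of the less affected bins and of 15.3% of the background. The median distance was 8 kb, 14 kb and 25 kb. Of the enriched bins, 28.1% fell into the set when such a bin was less than 2 kb away, and 11.4% when it was 21 kb or more away. Around the domain at 2L:19154001-19170000 the highest small RNA signal within 5 kb was 76.5 and around 3R:27620001-27631000 it was 91.0, whereas none of 10 or more lay within 5 kb of 2R:12097001-12110000, X:10073001-10089000 or X:4562001-4573000. In the first 2 of these flanks the Piwi-bound library labelled somatic reached 65.1 and 29.8. At 2L:19154001-19170000, 5 of the 13 other bins within 5 kb had a mappability index below 0.5. Whether the nearby small RNA is of germline or somatic origin was not tested. Some bins on X had no small RNA reads in any library. In 28 of the 623 bins, all on X and 16 of them in and around X:10073001-10089000, all 5 small RNA libraries were at 0 reads over stretches of 20 or more bins, and whether small RNA reads could be placed there was not tested.

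The few small RNA reads inside the bins are given as a description, since the rule held the control signal below 10 and set no such limit on the knockdowns, which raises ratios to the control. Summed over the 623 bins they were 0.992 times the control in rhino knockdown (exact 95% interval 0.956 to 1.03, counting error only), 1.05 in deadlock and 1.07 in cutoff knockdown. In the 373 bins with lower H3K9me3 in rhino knockdown the ratios were 1.14, 1.30 and 1.27, and in the other 250 they were 0.759, 0.665 and 0.748. The less affected bins had 0.760, 0.866 and 0.798. The background, under the same limit on the control, had 1.46, 1.78 and 1.65. In the 27 bins in Rhino peaks the ratios were 0.422, 0.480 and 0.452, on 412 control reads. In the first domain, 2L:18527001-18545000, there were 39 reads in the control library against 126, 249 and 203 after knockdown of rhino, deadlock and cutoff. These counts are not scaled for library depth, which differed between the libraries, so no size of rise is read from them. The mean deposited signal of the domain, which is normalised, was also above the control in each knockdown. It rose by a smaller factor than the read counts in each.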

How the data were processed

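The authors deposited 1 table of 1 kb bins on dm3. Its values are a normalised signal per bin, whose scaling is not given in the sources used here. Tools named in the submitters' processing notes are bedtools 2.16.1, SAMtools 0.1.16, GSNAP, cutadapt 1.0 and Bowtie 0.12.7. The 21 columns of single libraries came out as whole reads within 0.1 read in 100% of bins under 500 reads, after subtracting an offset (0.1, or 0.01 for RNA-seq) and multiplying by the mappability index. A read can be counted in 2 bins. The 6 averaged columns stayed as deposited, and 1 column of another library was not used.

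Changes are differences of log2(value + 1). Ratios of summed reads carry exact Clopper-Pearson 95% intervals for counting error only. RNA-seq was tested with limma 3.58.1 (R 4.3.3; trend, 4 groups, all 123742 bins past the input limit) and tested on simulated data. There the fit recovered the sizes of large changes but called none of the changed bins, so a lack of calls in this design says nothing about stability. Other values came from Python 3.11.15 with numpy 2.4.6, pandas 2.3.3 and scipy 1.17.1. Regions named are the 10 domains with the most bins, the 5 bins at each end of the rhino to control change, and the 5 bins with the most control RNA. The bins and this rule were chosen with earlier results of these data known. The labels do not say whether the control RNA-seq libraries came from separate ovary collections, so p-values may measure technical spread only.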

Additional observations from a re-analysis of the deposited data

How the results depend on the processing

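Of 113 recomputed values for 24 results, 99 stayed within 1.5 times (counts and shares), 0.1 on the log2 scale (medians) or the 95% interval (summed reads), and 1 changed sign (the change of Rhino ChIP in piwi knockdown, 0.01 as reported). Some of the 99 are RNA-seq counts of 0 set beside 0, which say nothing about stability. A pseudocount of 5 in the rule left 368 bins, against 623 with 1. A piwi ratio at or below 0.5 moved the median log2 change of H3K9me3 in rhino knockdown to -0.90, that of Rhino ChIP in rhino knockdown to -0.19 and that of Rhino ChIP in piwi knockdown, with its sign turned, to -0.12, and equal-median scaling moved the first to -0.92. The share of bins at least 2-fold over input in Rhino ChIP became 7.06% with a pseudocount of 5 and 8.02% with an input of at least 50% of its median. The share at 4-fold became 2.25% with a pseudocount of 0.1 and 0.526% with a mappability index of at least 0.5, a filter that also moved the median small RNA change in deadlock knockdown to -0.16. The summed GRO-seq ratio became 1.10 with the stricter input limit and 1.09 without the bin with the most control reads. The cause was not tested. In RNA-seq, grouping the 3 knockdowns called 0 of the 623 bins, and leaving out 1 control library from that fit, which leaves a single control, gave 4 to 193 calls. There were 193 (31.0%) without replicate 1, beside 24.7% of all bins, and 4 (0.642%) without replicate 2, beside 1.14%. A mean RNA-seq signal of at least 1, leaving out stretches without small RNA reads, and leaving out the largest GRO-seq bin were added after seeing the data. A count test (edgeR) on the recovered reads was not run. No paired analysis was possible because the ChIP columns are averages and each knockdown has 1 RNA-seq library. Averages give no spread, and few reads decide bins of low mappability.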
